A study of Mus musculus with 30 samples.

Results

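Ctrl_R is the control among the doxycycline (Dox) rescue clones of the mouse embryonic stem cell (ESC) line Ainv15 (129P2/OlaHsd background). Its arrays were chosen by their labels, 3 from cells kept in Dox (1 µg/ml, +Dox) and 3 from cells grown for 5 days without it (−Dox), 6 of the 30 arrays in the series. The other 24 arrays cover Bub1b_R, Chek1_R, Ppm1g_R and Ppp2r1b_R under the same conditions, where the endogenous mRNA is knocked down by an shRNA and Dox induces a resistant copy. The Ctrl_R samples are numbered apart from these 24, and the paper also used publicly available arrays. The raw median signal was 16.1 to 21.5 on the Ctrl_R arrays and 18.9 to 53.8 on the others. Clone and array set therefore cannot be told apart where Ctrl_R is set against the other clones. All clones carry the reverse tetracycline transactivator (rtTA), and all were grown with leukaemia inhibitory factor (LIF). They were derived on mouse embryonic fibroblast feeders and, per the study's methods, kept without feeders for the arrays. The rescue vector puts its insert and eGFP behind a tetracycline-response element. The sequence of the control shRNA and the insert of Ctrl_R are not given in the sources used here, so Dox and whatever it switched on in this clone were withdrawn together and cannot be told apart. The labels do not say whether replicate arrays came from separate cultures. P-values then measure the spread between arrays of the same condition, which may be technical. That spread is pooled for each probe over all 30 arrays, so it is not that of the Ctrl_R arrays alone. The comparison asks how the transcriptome of the control clone answers to Dox withdrawal itself.

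Dox is an antibiotic of the tetracycline family. In a Tet-on cell it binds rtTA, which then binds the response element and starts transcription. Tetracyclines also bind metal ions and inhibit translation by mitochondrial ribosomes, which can engage the stress response that runs through the transcription factor ATF4. Mouse ESCs in serum and LIF are a mixture of states, with cells that move towards epiblast or, rarely, into a state that transcribes genes of the 2-cell embryo.

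Each array gave the signal of 25697 probes, and between 12913 and 13685 of them were detected (detection p under 0.05) on the Ctrl_R arrays. After normalization, levels are log2 values, and 15151 probes of 11177 genes detected on at least 3 of the 30 arrays were tested in 1 limma fit. A call (changed, rose or fell) needed 1.5-fold and a Benjamini-Hochberg adjusted p under 0.05, and every change given is −Dox minus +Dox on the log2 scale with the standard error (SE) of the fit. The number of arrays limits the precision. Across probes, arrays of the same Ctrl_R condition correlated at r = 0.9934 to 0.9949 and arrays of different conditions at 0.991 to 0.9926. The first principal component, 35.2% of the variance, placed the 3 +Dox arrays on one side and the 3 −Dox arrays on the other.

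The cells carried the ESC markers in both conditions. Pou5f1 (Oct4), the central pluripotency factor, was at 12.72, 12.76 and 12.76 with Dox and at 12.62, 12.55 and 12.51 without it. Nanog, another core factor, was at 12.48, 12.23 and 12.30 with Dox and at 12.53, 12.45 and 12.55 without. Neither passed the test (log2 change −0.19, adjusted p = 0.210, and 0.17, adjusted p = 0.332). Of 14 fibroblast genes that could come from feeders, 10 were tested and 0 were called, with a median log2 change of −0.09 and a summed level on a linear scale of 3033 to 3321 with Dox and 3105 to 3321 without. Col1a2, Fap, Lum and Postn of that list did not pass the detection filter.

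The mRNAs that the other clones target, Bub1b, Chek1, Ppm1g and Ppp2r1b, were read first. Bub1b, a spindle checkpoint kinase, was at 10.51, 10.65 and 10.48 with Dox and at 10.27, 10.44 and 10.40 without (log2 change −0.17, adjusted p = 0.201). Ppm1g, a metal-dependent phosphatase, had a log2 change of 0.16 (adjusted p = 0.377). The checkpoint kinase Chek1 had −0.09 (adjusted p = 0.796) and the PP2A scaffold subunit Ppp2r1b −0.17 (adjusted p = 0.572). Aurka, a mitotic kinase that no clone here targets, had 0.12 (adjusted p = 0.370). All 5 were detected on every Ctrl_R array and none was called. In its own rescue clone, Ppm1g fell by 1.25 on withdrawal (adjusted p = 4.5e-09), while Bub1b (−0.14, adjusted p = 0.217) and Ppp2r1b (0.20, adjusted p = 0.365) did not pass the test in theirs. On the arrays labelled Chek1_R, Chek1 rose by 0.71 (adjusted p = 0.00115), against the direction that its rescue design sets. Its mean level there, 5.31 with Dox and 6.01 without, lay below the 7.18 and 7.08 of Ctrl_R in both conditions. These arrays are therefore named by their label below, and differences from the mean that turn on them are also given without them. Which of the endogenous and the rescue mRNA the probes read is not given in the sources used here.

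Dox withdrawal changed 167 probes (1.1% of those tested) in Ctrl_R, for 159 genes. Of these, 107 (0.706%) were higher and 60 (0.396%) lower without Dox. The corresponding counts were 849 (5.6%) in Bub1b_R, 662 (4.37%) in Ppm1g_R, 731 (4.82%) in Ppp2r1b_R and 1404 (9.27%) on the arrays labelled Chek1_R. The standard deviation of the log2 changes over all tested probes was 0.21 in Ctrl_R against 0.28 to 0.41 in the other clones. Clone and array set cannot be told apart in this comparison. Without a fold limit 1144 probes (7.55%) passed in Ctrl_R, and a 2-fold limit left 10. Most changes in Ctrl_R were therefore small, and the probes that rose were dim ones, with a median level with Dox of 6.16 against 7.66 over all tested probes. Of the 167, 30 were detected on no array of 1 condition, 25 of them higher and 5 lower without Dox, and 5 of these had a bound of at least 1.5-fold. Raising the normalization offset, which shrinks the changes of dim probes, from 16 to 50 or 200 left 45 or 15 changed probes, and the methods' t-test with the same adjustment called 15.

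**Figure D1:**
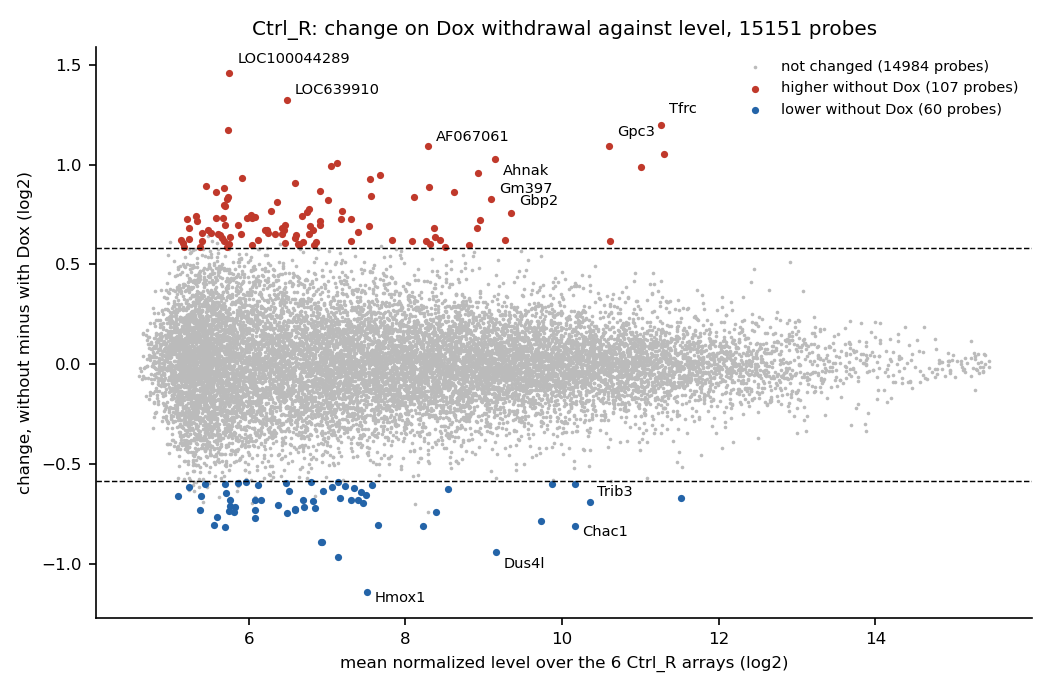
Mean normalized level over the 6 Ctrl_R arrays (log2, horizontal) against the change without minus with Dox (log2, vertical) for 15151 probes; the dashed lines mark 1.5-fold. The 107 probes that rose (red) lie mostly at low levels, while Tfrc and Gpc3 stand out among the bright probes, and Hmox1 has the largest fall.

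The iron uptake receptor and the haem-degrading enzyme moved in opposite directions. Tfrc, the transferrin receptor that brings iron into the cell, was at 10.76, 10.82 and 10.73 with Dox and at 11.99, 11.65 and 11.83 without. It rose by 1.05 (SE 0.08, adjusted p = 5.8e-09), and a second Tfrc probe rose by 1.20 (adjusted p = 5.4e-08). In the methods' t-test, which uses the spread of the Ctrl_R arrays only, neither probe passed (adjusted p = 0.0629 and 0.0527). Hmox1, haem oxygenase, which frees iron from haem and is induced by oxidative stress, was at 8.16, 7.98 and 8.09 with Dox and at 6.83, 6.92 and 7.06 without. It fell by 1.14 (SE 0.24, adjusted p = 0.00405). Both genes kept their arrays fully apart by condition, as did 26.2% of all tested probes. In bulk RNA, fewer cells that express a gene and less of its RNA per cell cannot be told apart.

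The remaining metal genes gave no call. Of 12 genes on the list, 10 were tested, of which 1 was higher and 1 lower, beside 0.698% higher and 0.447% lower over the brightest probes of all genes. Slc40a1 (ferroportin), the iron exporter, was at 7.76, 8.01 and 7.89 with Dox and at 8.36, 8.12 and 8.51 without, a log2 change of 0.45 that passed the adjusted p (0.00244) but not 1.5-fold. The iron regulatory proteins Ireb2 (0.09, adjusted p = 0.667) and Aco1 (−0.16, adjusted p = 0.530) did not pass. Neither did the ferritin heavy chain Fth1 (−0.07, adjusted p = 0.507) nor the metallothioneins Mt1 (0.10, adjusted p = 0.280) and Mt2 (−0.04, adjusted p = 0.938).

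Of the ATF4 stress response genes, 2 fell without Dox and 9 in all were lower on the adjusted p alone. ATF4 is translated when eIF2α is phosphorylated and drives genes of amino acid supply together with inhibitors of its own pathway. Chac1, a glutathione-degrading enzyme and ATF4 target, was at 10.57, 10.57 and 10.56 with Dox and at 9.74, 9.74 and 9.77 without, and fell by 0.81 (SE 0.06, adjusted p = 1.1e-08). Trib3, a pseudokinase that ATF4 induces and that restrains it, was at 10.72, 10.71 and 10.66 with Dox and at 10.08, 9.97 and 9.98 without, and fell by 0.69 (SE 0.08, adjusted p = 9.2e-06). For both genes the conditions lay far apart beside the spread of their 3 arrays.

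Of the 26 genes of this list that were tested, 2 were lower and 0 higher, beside 0.447% lower and 0.698% higher over all genes. On the adjusted p alone, without a fold limit, 9 were lower and 1 higher, beside 4.04% lower and 4.34% higher over all genes (8.38% together). The median log2 change of the list was −0.19 against −0.01 over all genes, with 20 members below 0. Beside Chac1 and Trib3, those lower on the adjusted p were Sesn2 (−0.52, adjusted p = 0.00977), a stress-induced regulator of mTORC1, and the stress protein gene Nupr1 (−0.44, adjusted p = 0.00213). The mitochondrial folate enzyme Mthfd2 (−0.41, adjusted p = 0.00767), the transaminase Gpt2 (−0.34, adjusted p = 0.00798), the proline synthesis enzyme Aldh18a1 (−0.35, adjusted p = 0.0124), the cysteine-forming enzyme Cth (−0.35, adjusted p = 0.040) and asparagine synthetase, Asns (−0.25, adjusted p = 0.0104), completed the 9. Atf4 itself had a log2 change of −0.24 (adjusted p = 0.117) and Ddit3 (CHOP) of −0.01 (adjusted p = 0.970). Ddit4, an mTORC1 inhibitor also induced by hypoxia, was the member that was higher (0.27, adjusted p = 0.0156). With median scaling in place of quantiles, 4 members were lower on the adjusted p. The list medians in the other clones were 0.03 in Bub1b_R, −0.12 in Ppm1g_R, −0.26 in Ppp2r1b_R and −0.27 on the arrays labelled Chek1_R.

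Atf5, a factor of the mitochondrial unfolded protein response that is itself induced with ATF4, was at 8.81, 8.62 and 8.48 with Dox and at 7.77, 7.91 and 7.79 without. It fell by 0.81 (SE 0.09, adjusted p = 4.4e-06). It was the 1 gene called among 15 tested genes of the mitochondrial unfolded protein response, whose median log2 change was −0.02. Of 68 genes of the mitochondrial ribosome, 1 was called, Mrpl45 (0.60, adjusted p = 0.0276), and of 70 genes of the respiratory chain, 1 was called, Cox7b (0.64, adjusted p = 0.0151). Over the brightest probes of all genes 1.15% were called, so 1 call in 68 or 70 genes lies near that share. The call of Mrpl45 was lost without +Dox replicate 1 (0.47) or 3 (0.52) and without −Dox replicate 2 (0.50) or 3 (0.61). That of Cox7b was lost without −Dox replicate 1 (0.53) or 3 (0.60). The medians of both lists, −0.01 and 0.04, lay near that of all genes.

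The ATF4 target genes can be set beside their promoters. ATF4 binds, with a C/EBP partner, an element whose letters TGATGNAA were searched on both strands of RefSeq promoters (GRCm38.p6, 250 bases before to 50 after the start). The letters were in 3.97% of 32851 promoters and at 1 or more promoters of 4.51% of 27025 genes, and in 7 of the 23 tested list genes that had a promoter in the table (30.4%). The windows of the 2 genes that fell and of Nupr1 and Asns are shown, each on the strand of its gene with the matching letters in capitals, reading TTNCATCA where the match is on the opposite strand.
Chac1, chr2:119351039-119351066, plus strand: ttccctgccgTTGCATCActcctgccag
Trib3, chr2:152344029-152344056, minus strand: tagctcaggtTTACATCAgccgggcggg
Nupr1, chr7:126625563-126625590, minus strand: aagggccagaTTGCATCAgacagggctt
Asns, chr6:7693215-7693242, minus strand: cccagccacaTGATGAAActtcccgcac
The windows of Atf5, Sesn2 and Mthfd2 did not hold these letters. A match is a description of the sequence, and no binding was measured here.

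Of the 21 tested genes of the cholesterol list, 12 were higher without Dox on the adjusted p, beside 4.34% of all genes. These are targets of SREBP2, the factor that answers to low sterol. With the fold limit 1 was called, beside 0.698% of all genes, while 20 of the 21 lay above 0, and the median log2 change was 0.29. Sc5d (0.55, adjusted p = 0.00664), Nsdhl (0.48, adjusted p = 0.00445), Dhcr7 (0.47, adjusted p = 0.00485) and Lss (0.44, adjusted p = 0.00209), all enzymes of the later steps, passed the adjusted p without reaching 1.5-fold. Sqle, squalene epoxidase, was at 0.40 (adjusted p = 9.6e-04). Tm7sf2 was the member below 0 (−0.06, adjusted p = 0.878), and the gene of SREBP2 itself, Srebf2, was at 0.02 (adjusted p = 0.938). The median changes in the other clones were 0.16 in Bub1b_R, −0.06 in Ppm1g_R, 0.25 in Ppp2r1b_R and 0.07 on the arrays labelled Chek1_R.

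**Figure D2:**
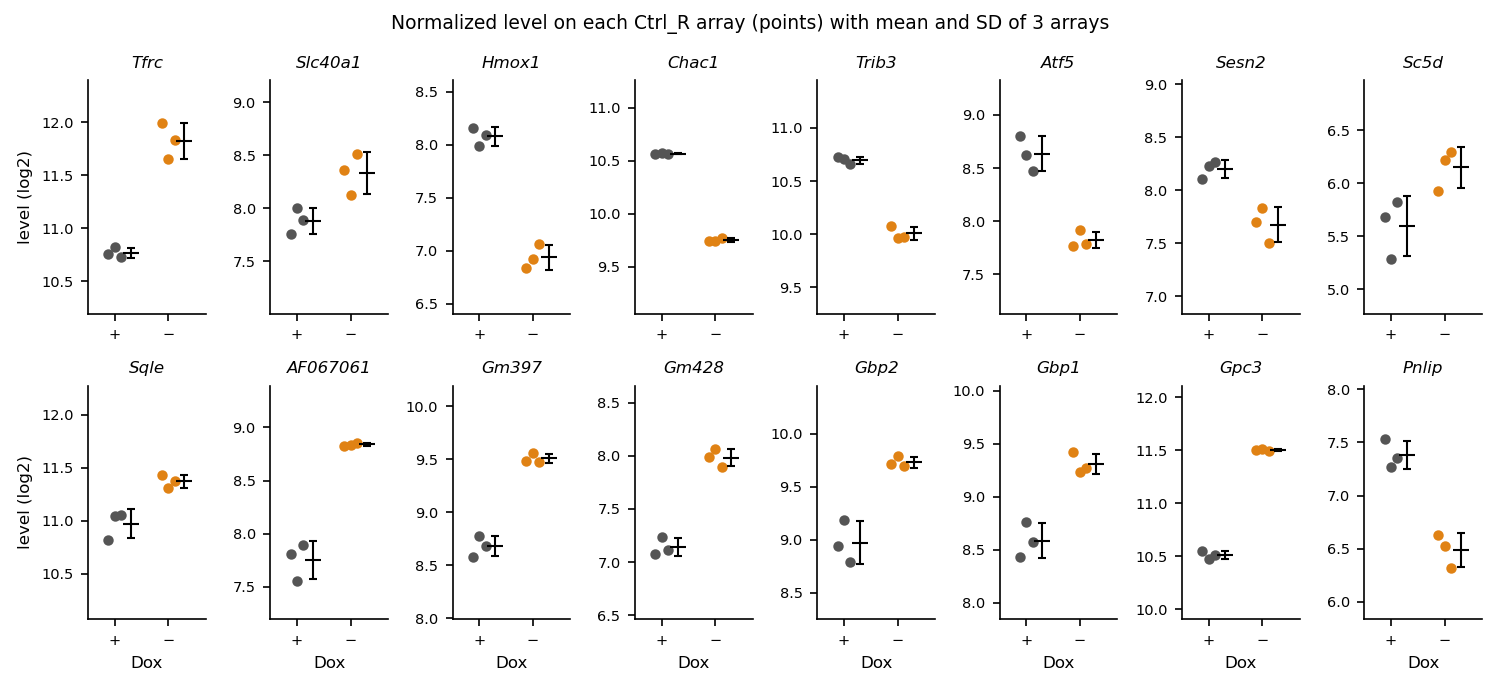
Normalized level (log2) of 16 genes on the 3 +Dox (grey) and 3 −Dox (orange) arrays of Ctrl_R, with the mean and SD of each condition; every panel spans the same log2 range and shows the gene's brightest probe. Tfrc, the 2-cell-like genes, Gbp2, Gbp1 and Gpc3 are higher on every −Dox array, and Hmox1, Chac1, Trib3, Atf5 and Pnlip lower. Of all tested probes, 26.2% had the arrays of the 2 conditions fully apart in either direction.

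Genes of the 2-cell-like state rose as a group. This state appears in a small share of ESCs in culture and is marked by the Zscan4 cluster, the Tcstv genes and endogenous retroviruses. AF067061 was at 7.81, 7.55 and 7.89 with Dox and at 8.83, 8.84 and 8.86 without, and rose by 1.09 (SE 0.11, adjusted p = 9.4e-07). Gm397, now Zscan4c, a member of the telomere-regulating Zscan4 cluster, was at 8.58, 8.77 and 8.68 with Dox and at 9.48, 9.56 and 9.48 without, and rose by 0.83 (SE 0.08, adjusted p = 5.9e-07). Gm428 was at 7.08, 7.23 and 7.12 with Dox and at 7.99, 8.06 and 7.90 without, and rose by 0.84 (SE 0.14, adjusted p = 4.3e-04). The conditions did not overlap for any of these genes, as for 26.2% of all tested probes. In the methods' t-test, AF067061 (adjusted p = 0.0611) and Gm428 (adjusted p = 0.0524) did not pass.

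Of 11 genes on the 2-cell-like list, 7 were tested and 6 rose, beside 0.698% of all genes, and the median log2 change of the 7 was 0.84. Tcstv1 (1.01, adjusted p = 3.8e-04), Tcstv3 (0.95, adjusted p = 0.00141) and BC061212 (0.61, adjusted p = 0.0189) were the other 3, and Tmem92 passed the adjusted p (0.0124) at a log2 change of 0.51, short of 1.5-fold. The call of BC061212 was lost without +Dox replicate 1 (0.62) or 3 (0.57) and without −Dox replicate 1 (0.58) or 3 (0.50). The remaining 4, Zfp352, Tdpoz4, Arg2 and 5830484A20Rik, were detected on too few arrays to be tested. At an offset of 200 the count was 2. Several further genes of little-known function stood among the strongest risers. LOC639910, now Gm20767, was at 5.78, 5.77 and 5.93 with Dox and at 7.01, 7.43 and 7.01 without, and rose by 1.33 (SE 0.14, adjusted p = 9.4e-07). LOC435337, now Gm5662, rose by 0.93 (adjusted p = 0.00211). LOC625360, now BC147527, was detected on 0 of 3 +Dox and 3 of 3 −Dox arrays, and its rise was at least 1.75-fold (adjusted p = 3.5e-05). Such a bound sets the detected arrays against the lowest signal detected on each array without detection, or the probe's own signal where that is higher.

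For most of these genes the rise was larger in Ctrl_R than in the mean of the other 4 clones. The median log2 change of the 7 tested genes was −0.17 in Bub1b_R, −0.02 in Ppm1g_R, 0.16 in Ppp2r1b_R and 0.57 on the arrays labelled Chek1_R. The difference from the mean passed the test for 5 of the 7, also without the arrays labelled Chek1_R, beside 1.74% of all genes that differed upwards. It was 0.92 for AF067061 (SE 0.13, adjusted p = 1.7e-05), 0.97 for Gm428 (SE 0.15, adjusted p = 9.4e-05) and 0.65 for Gm397 (SE 0.09, adjusted p = 2.2e-05). The difference for LOC639910 was 1.20 (SE 0.15, adjusted p = 5.7e-06). Gm397 itself had a log2 change of −0.23 in Bub1b_R, 0.12 in Ppm1g_R and −0.06 in Ppp2r1b_R, and 0.87 on the arrays labelled Chek1_R. Tcstv3 was 1.02 in Bub1b_R and 0.85 on the arrays labelled Chek1_R, and its difference from the mean did not pass (0.41).

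A few interferon-inducible genes, singled out after their values were seen, rose as well, while the interferon list as a whole gave 1 call. Gbp2, a guanylate-binding protein of cell-autonomous immunity, was at 8.94, 9.19 and 8.79 with Dox and at 9.72, 9.79 and 9.69 without, and rose by 0.76 (SE 0.07, adjusted p = 3.7e-07). Gbp1, now Gbp2b, rose by 0.72 (SE 0.08, adjusted p = 1.1e-06), and Gbp3 by 0.93 (SE 0.11, adjusted p = 7.3e-06), with 1 of 3 +Dox arrays detected. The 3 genes lie close together on chromosome 3. Of the interferon list written for this work, 20 genes were tested and 1 was called, beside 1.15% of all genes. It was Oasl2, an oligoadenylate synthetase-like protein (0.59, adjusted p = 0.0143). That call was lost without +Dox replicate 1 (0.47) and without −Dox replicate 1 (0.54) or 3 (0.41). The median of the list was 0.10, with 7 of the 20 below 0. Ifitm3, a membrane protein that blocks virus entry, was at 0.48 (adjusted p = 2.8e-04), short of 1.5-fold. Cxcl10, a chemokine, was detected on 0 of 3 +Dox and 3 of 3 −Dox arrays and was at least 1.04-fold higher (adjusted p = 0.0289).

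The promoters of 6 interferon-inducible genes were searched for the letters of an interferon-stimulated response element. The element was taken as a pair of GAAA runs with 2 bases between them and was searched on both strands in the same RefSeq table, where 3.44% of all promoters and 3.99% of genes hold it. It was in 5 of the 6 genes Gbp2, Gbp3, Gbp2b, Irgm1, Cxcl10 and Oasl2, with Oasl2 the exception, and the palindrome TTCNNNGAA, found in 8.3% of promoters and 9.55% of genes, was in 0 of the 6. The 6 genes were picked after their values were seen, and the interferon list as a whole was not searched. Their count beside the share of all genes is therefore no test of enrichment. The brightest Irgm1 probe did not pass (0.15, limma, adjusted p = 0.251). A window of each of the 3 Gbp genes is shown on the strand of its gene, with the matching letters in capitals, which show TTTC runs because the match is on the opposite strand.
Gbp2, chr3:142620595-142620622, plus strand: ctcttttagTTTCACTTTCactgtctta
Gbp3, chr3:142559990-142560017, plus strand: aggacacagTTTCAGTTTCtatttccca
Gbp2b, chr3:142594701-142594728, plus strand: tacttctaaTTTCACTTTCttctttatc
Gbp2 had a log2 change of 1.18 in Bub1b_R, 0.22 in Ppm1g_R, 0.83 in Ppp2r1b_R and 1.60 on the arrays labelled Chek1_R. Over the interferon list, 7 of 20 genes had a smaller change in Ctrl_R than in the mean of the other clones and 1 a larger one, beside 2.54% and 1.74% of all genes. Without the arrays labelled Chek1_R these counts were 5 and 1.

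Among the naive pluripotency genes, 1 of the 12 tested was called, beside 1.15% of all genes. Gbx2, a homeobox factor downstream of LIF and STAT3, was at 10.53, 10.56 and 10.31 with Dox and at 9.94, 9.78 and 9.88 without, and fell by 0.60 (SE 0.08, adjusted p = 5.8e-05). The call stood close to the limit and was lost without +Dox replicate 1 (−0.57) or 2 (−0.55) and without −Dox replicate 2 (−0.55). Tbx3 (−0.57, adjusted p = 4.1e-04), Tcl1 (−0.39, adjusted p = 6.8e-05) and Esrrb (−0.31, adjusted p = 0.0029), factors of ESC self-renewal, passed the adjusted p without reaching 1.5-fold. Leaving out +Dox replicate 1 (−0.62), −Dox replicate 1 (−0.60) or −Dox replicate 3 (−0.60) took Tbx3 past it. Klf4 (−0.03, adjusted p = 0.908) and Zfp42 (Rex1, −0.18, adjusted p = 0.401) did not pass. The direct STAT3 target Socs3, a feedback inhibitor of LIF signalling, was at 12.39, 12.39 and 12.36 with Dox and at 12.02, 11.98 and 11.98 without (log2 change −0.39, adjusted p = 6.8e-05).

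Of 14 core ESC genes 0 were called, and 0 passed the adjusted p alone. Tdgf1, the Nodal co-receptor, had the largest log2 change among them (0.35, adjusted p = 0.134). Sox2 depended on the probe. Its brightest probe had a log2 change of −0.16 (adjusted p = 0.306), and a dimmer one rose by 0.62 (adjusted p = 0.0174), at 7.63, 7.71 and 7.98 with Dox and 8.27, 8.26 and 8.64 without. In the other clones the dimmer probe lay between −0.32 and −0.14.

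Primitive streak genes gave a few calls in both directions. Fgf8, a growth factor of the streak, was at 6.43, 6.39 and 6.27 with Dox and at 7.15, 7.16 and 7.07 without, and rose by 0.76 (SE 0.07, adjusted p = 1.5e-07). T (Brachyury), the mesoderm transcription factor, was at 5.41, 5.56 and 6.00 with Dox and at 6.46, 6.40 and 6.35 without, and rose by 0.75 (SE 0.11, adjusted p = 1.2e-04). On +Dox replicate 1 T lay under the lowest detected level, 5.51, so its rise is a fitted value near the floor. In the methods' t-test, which uses the spread of the Ctrl_R arrays only, T did not pass (adjusted p = 0.173). Cdx1, a caudal homeobox gene, fell by 0.69 (SE 0.16, adjusted p = 0.00899), a call lost without +Dox replicate 1 (−0.56). At an offset of 50 Fgf8 and T were both under 1.5-fold, at 0.58 and 0.49.

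Of the 22 streak and mesoderm genes tested, 2 rose and 1 fell, beside 0.698% and 0.447% of all genes, with a median log2 change of 0.12. The Wnt target Sp5 (0.44, adjusted p = 0.00466) and the chemokine Cxcl12 (0.40, adjusted p = 0.00147) passed the adjusted p only. Mixl1 and Fgf5 were not detected on any Ctrl_R array. The other clones had median changes of 1.38 in Bub1b_R, 0.86 in Ppm1g_R, 0.38 in Ppp2r1b_R and 1.78 on the arrays labelled Chek1_R for the same 22 genes. The change in Ctrl_R was smaller than their mean, past the test, for 14 of the 22, beside 2.54% of all genes, and for 11 without the arrays labelled Chek1_R. T differed by −1.68 (SE 0.12, adjusted p = 9.1e-10), and by −1.01 when the arrays labelled Chek1_R were left out of the mean. Fgf8 differed by −1.03 (SE 0.08, adjusted p = 1.6e-09), but by −0.42 without those arrays, which is under 1.5-fold.

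Of 10 tested genes of the Nodal and activin list, 1 was called, beside 1.15% of all genes. Otx2, a factor of the formative epiblast, was at 0.35 (adjusted p = 0.00225). It had log2 changes of −0.87 on the arrays labelled Chek1_R and −0.77 in Ppm1g_R, and its change in Ctrl_R was larger than the mean of the other clones by 0.85 (SE 0.08, adjusted p = 3.3e-08). The keratins Krt8 (0.49, adjusted p = 9.4e-07) and Krt19 (0.51, adjusted p = 0.00168), which form the filaments of simple epithelia, passed the adjusted p only. Nes (nestin, 0.56, adjusted p = 0.00126), an intermediate filament of neural progenitors, did so too.

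In the FGF-ERK list, 14 genes were tested, 1 rose and 1 fell, beside 0.698% and 0.447% of all genes. Egr1, an immediate early factor induced by ERK, was at 10.24, 10.43 and 10.23 with Dox and at 11.04, 10.79 and 10.93 without, and rose by 0.62 (SE 0.07, adjusted p = 9.2e-06). Spry4, a feedback inhibitor of the pathway, fell by 0.59 (adjusted p = 0.0261). Leaving out +Dox replicate 3 (0.58) or −Dox replicate 1 (0.56) took Egr1 under 1.5-fold. The call of Spry4 was lost without 5 of the 6 arrays in turn, at −0.62 to −0.49, and remained without +Dox replicate 2.

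Several lists gave 1 call each. Sfn (14-3-3σ), a p53 target that restrains mitotic entry, rose by 0.62 (adjusted p = 0.00339), 1 of 27 tested p53 targets. Slc16a3, the lactate exporter MCT4, rose by 0.73 (adjusted p = 0.00497), 1 of 27 genes of glycolysis and hypoxia. Hspa5 (BiP), the main chaperone of the endoplasmic reticulum, rose by 0.67 on a dim probe (adjusted p = 0.0143), 1 of 12. Rpl22l1, a paralogue of a ribosomal protein gene, rose by 0.62 (adjusted p = 0.0359), 1 of 60 cytosolic ribosome genes. Over the brightest probes of all genes 0.698% rose. Leaving out an array cost the call of Sfn for +Dox replicate 1 (0.53) or 2 (0.54) and −Dox replicate 2 (0.54). It cost that of Hspa5 for +Dox replicate 1 (0.56) and −Dox replicate 3 (0.54), and that of Rpl22l1 for 5 of the 6 arrays. No gene was called among 30 of DNA replication, 17 of mitosis, 15 of the germline, 9 BMP targets, 16 of endoderm, 12 of trophoblast or 6 of neuroectoderm. On the adjusted p alone, 2 replication genes were higher and 1 lower, and 1 mitosis gene was higher.

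**Figure D3:**
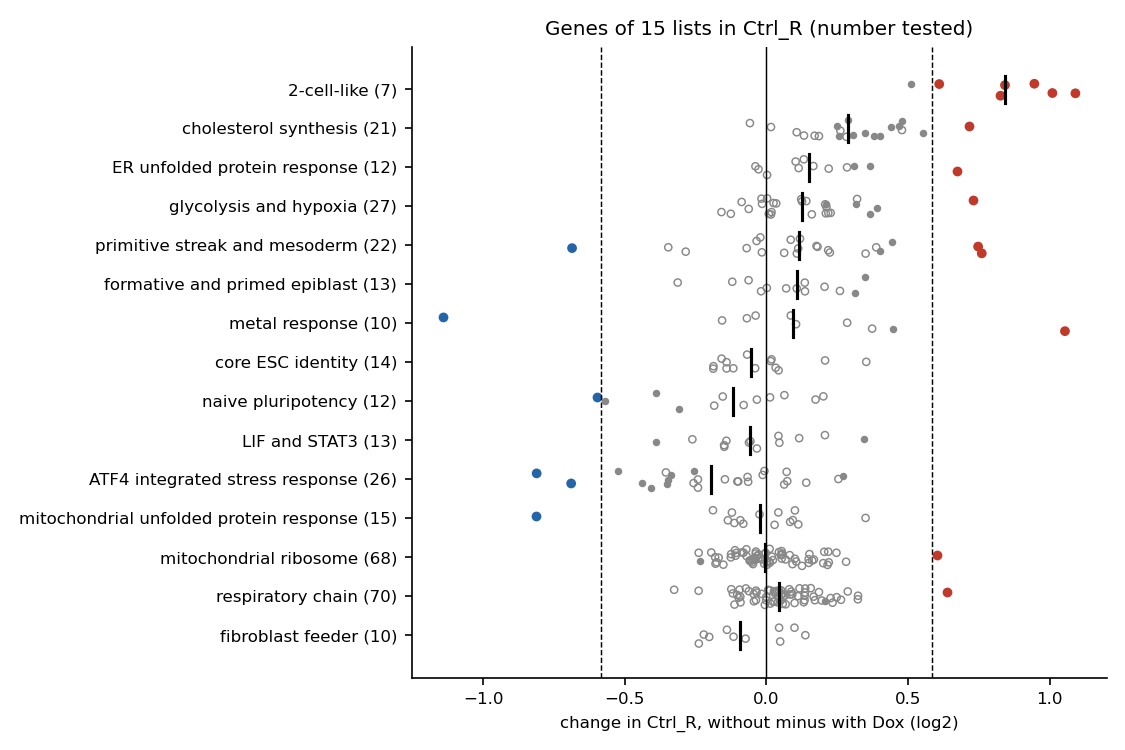
Change without minus with Dox (log2) of the tested genes of 15 lists in Ctrl_R, 1 point a gene, with the number tested in brackets, the list median as a black bar and 1.5-fold as dashed lines. Coloured points are called changed, filled grey points pass the adjusted p only and open points do not pass. The 2-cell-like genes lie furthest to the right with a median of 0.84, and the cholesterol genes follow at 0.29. The ATF4 list lies lowest of these 15 at −0.19, and the 6 neuroectoderm genes, not plotted, had a median of −0.20.

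The largest changes also included genes outside the lists. LOC100044289 was detected on 0 of 3 +Dox and 3 of 3 −Dox arrays, at 6.57, 6.49 and 6.39 without Dox, and was at least 1.94-fold higher (adjusted p = 5.6e-10). R3hdm1, which encodes an R3H domain protein, rose by 0.91 (adjusted p = 2.9e-05) and Vapb, a tether of the endoplasmic reticulum, by 0.89 (adjusted p = 0.0149), a call lost without +Dox replicate 2 (0.81) or −Dox replicate 3 (0.81). Of the fallers, Dus4l, a tRNA dihydrouridine synthase, was at 9.61, 9.61 and 9.66 with Dox and at 8.84, 8.73 and 8.49 without, and fell by 0.94 (SE 0.10, adjusted p = 1.0e-06). Dynll2, a dynein light chain, fell by 0.89 (adjusted p = 0.00445), Cyp4f39, a cytochrome P450, by 0.81 (adjusted p = 2.8e-04) and Npm3, a nucleoplasmin, by 0.79 (adjusted p = 0.0258). The call of Npm3 came from a dimmer probe and was lost without 5 of the 6 arrays in turn. The brightest Npm3 probe was at −0.34 (adjusted p = 0.0447), short of 1.5-fold.

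Part of the Ctrl_R response was found in every clone. The within-clone changes share no arrays, so the calls can be set side by side. Of the 107 probes that rose in Ctrl_R, 39 rose in Bub1b_R (36.4% of the Ctrl_R calls and 8.76% of those in Bub1b_R), 15 in Ppm1g_R (14.02% and 4.30%), 42 in Ppp2r1b_R (39.3% and 10.0%) and 35 on the arrays labelled Chek1_R (32.7% and 5.14%). Of all tested probes, 2.94%, 2.30%, 2.77% and 4.49% rose there. Of the 60 that fell in Ctrl_R, 8, 4, 9 and 14 fell in these clones in the same order, 13.3%, 6.67%, 15.0% and 23.3%, beside 2.67%, 2.07%, 2.05% and 4.77% of all tested probes. In the 4 other clones together, 10 of the 107 rose in all and 45 in none, and 3 of the 60 fell in all and 44 in none.

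The 13 probes called the same way in all 5 clones include T and LOC100044289, described above, and genes of growth factor binding, the cell surface and metabolism. Gpc3, a heparan sulfate proteoglycan that binds growth factors, was at 10.55, 10.48 and 10.51 with Dox and at 11.50, 11.51 and 11.49 without, and rose by 0.99 (SE 0.06, adjusted p = 5.6e-10). A second Gpc3 probe rose by 1.09. Ahnak, a scaffold protein of the cell membrane, was at 8.52, 8.60 and 8.77 with Dox and at 9.72, 9.66 and 9.58 without, and rose by 1.03 (SE 0.15, adjusted p = 1.4e-04). This was the 1 changed probe of 3 tested for Ahnak, and the lowest of them was at −0.10. The log2 change of the called probe was close to that in the other clones, 0.79 to 0.97. Its difference from their mean was 0.13 and did not pass.

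Igfbp3, which binds insulin-like growth factors, rose by 0.84 (adjusted p = 3.3e-05), the serine protease gene Tmprss2 by 0.74 (adjusted p = 3.3e-05), Ly6a (Sca-1), a surface antigen, by 0.68 (adjusted p = 9.4e-07) and Ccne2, cyclin E2, by 0.65 (adjusted p = 0.0125). The 3 shared fallers were Pnlip, pancreatic lipase (−0.89, SE 0.14, adjusted p = 4.1e-04), Rab3il1, an exchange factor for Rab proteins (−0.74, SE 0.13, adjusted p = 6.0e-04), and Acss1, the mitochondrial acetyl-CoA synthetase (−0.67, SE 0.06, adjusted p = 3.7e-08). Pnlip was at 7.53, 7.26 and 7.35 with Dox and at 6.63, 6.52 and 6.32 without. Acss1 was at 11.82, 11.97 and 11.79 with Dox and at 11.15, 11.19 and 11.22 without. The change of Pnlip in Ctrl_R lay within the 4 other clones' −1.19 to −0.71, whereas those of Rab3il1 (−2.10 to −1.19 elsewhere) and Acss1 (−1.43 to −0.87 elsewhere) were the smallest of the 5. The brightest Rab3il1 probe differed from the mean of the others by 0.79 (SE 0.14, adjusted p = 3.4e-04), but the direction turned with the probe. A second, dimmer Rab3il1 probe had −0.96 in Ctrl_R and −0.95 to −0.20 elsewhere, and its difference was −0.46 (adjusted p = 0.0546), or −0.61 without the arrays labelled Chek1_R (adjusted p = 0.0170).

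**Figure D4:**
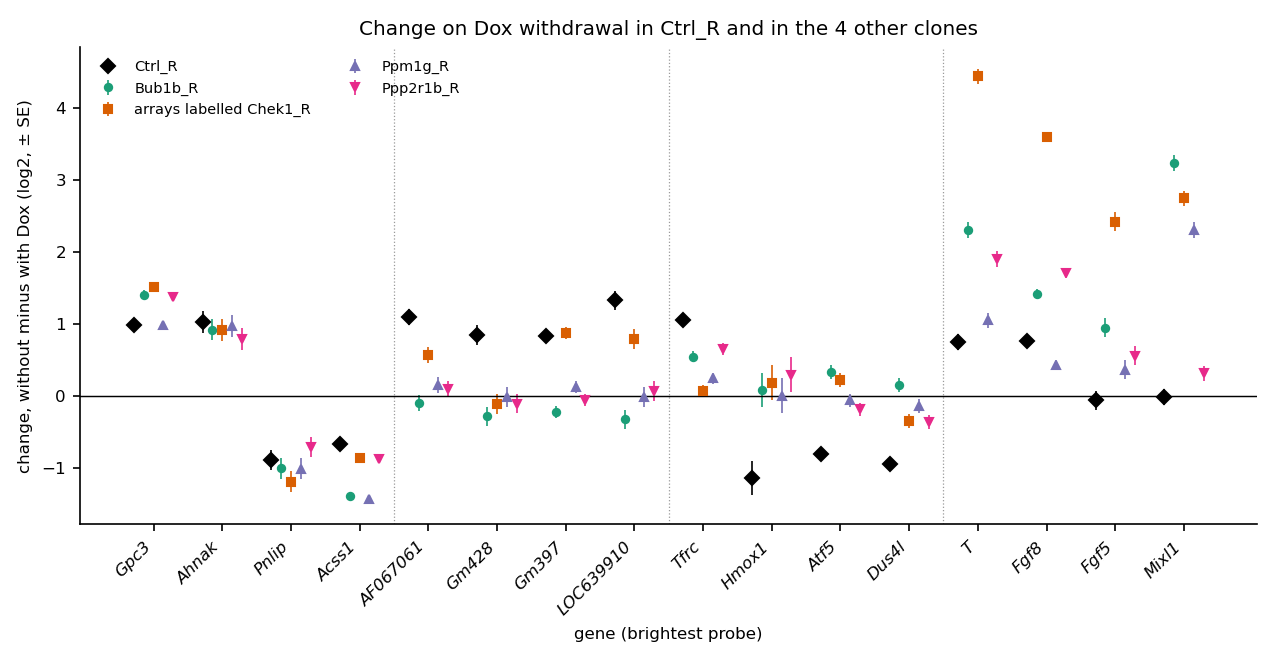
Change without minus with Dox (log2, ± SE of the fit) of 16 genes in Ctrl_R (black diamonds) and the 4 other clones, brightest probe of each gene. From left to right, 4 genes called in all 5 clones, 4 of the 2-cell-like group and its neighbours, 4 with changes of more than 0.8 in size in Ctrl_R, and 4 streak or epiblast genes, of which Fgf5 and Mixl1 were not detected in Ctrl_R and T and Fgf8 changed less there than in Bub1b_R.

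Tested directly, the change in Ctrl_R differed from that in Bub1b_R for 780 probes (5.15%), in Ppm1g_R for 799 (5.27%), in Ppp2r1b_R for 497 (3.28%) and on the arrays labelled Chek1_R for 1362 (8.99%). These comparisons share the Ctrl_R arrays, and clone and array set cannot be told apart in them. From the mean of the 4 clones it differed for 599 probes (3.95%), 245 upwards and 354 downwards. Among the 107 probes that rose in Ctrl_R, 36 rose more than the mean of the other clones and 7 less. Among the 60 that fell, 25 fell more and 1 less, and the remainder did not pass the test of the difference.

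Of the genes of the metal and stress lists, Hmox1 and Atf5 differed most. Hmox1 had log2 changes of 0.08 in Bub1b_R, 0.00 in Ppm1g_R, 0.30 in Ppp2r1b_R and 0.18 on the arrays labelled Chek1_R, and differed by −1.28 (SE 0.27, adjusted p = 0.00168). Atf5 lay between −0.19 and 0.33 in the other clones and differed by −0.89 (SE 0.10, adjusted p = 1.8e-06). Tfrc had log2 changes of 0.55 in Bub1b_R, 0.25 in Ppm1g_R, 0.65 in Ppp2r1b_R and 0.07 on the arrays labelled Chek1_R, and differed by 0.68 (SE 0.09, adjusted p = 7.6e-06). Without the arrays labelled Chek1_R in the mean, Tfrc differed by 0.57, under 1.5-fold, while its second probe stayed past it at 0.75. Chac1 had log2 changes of −1.38 in Ppp2r1b_R, 0.21 in Bub1b_R, 0.04 in Ppm1g_R and −0.93 on the arrays labelled Chek1_R. Its difference from the mean, −0.30, was under 1.5-fold. Without the arrays labelled Chek1_R in the mean, Chac1 differed by −0.44 (limma, adjusted p = 2.7e-04), also under 1.5-fold. Dus4l differed by −0.76 (SE 0.11, adjusted p = 2.8e-05), and Gbx2, which was at 0.73 on the arrays labelled Chek1_R and at −1.08 in Ppp2r1b_R, by −0.65 (SE 0.09, adjusted p = 2.4e-05), or −0.42 without the arrays labelled Chek1_R.

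Probes of the same gene often disagreed. Of the 159 genes with a changed probe, 61 had several tested probes, 5 had all of them changed and 12 had probes of opposite sign. The second tested probe was at 0.03 for Slc16a3, 0.10 for LOC435337, 0.11 for Oasl2, 0.16 for BC061212 and 0.19 for R3hdm1. Of the 107 probes that rose, 29 (27.1%) were not the brightest of their gene, and the brightest probe of the same gene was also changed for 5 of them, with a median log2 change of 0.19. Of all tested probes, 26.2% were not the brightest. Irgm, an interferon-inducible GTPase now named Irgm1, is an example. Its dim probe was called (0.62, adjusted p = 5.0e-04) on 0 of 3 detected +Dox arrays and 2 of 3 −Dox arrays, and its brightest probe, near 13.5, had 0.15 (adjusted p = 0.251). Over the brightest probe of each gene, 128 of 11177 genes (1.15%) were changed, 78 higher and 50 lower.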

How the data were processed

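Expression was measured on Illumina mouse WG-8 v2 BeadChips for 5 Ainv15 rescue clones with and without Dox, 3 arrays a condition. The authors deposited a background-corrected intensity for 25697 probes with the detection p-value of each. Their processing notes name lumi, and the version, normalization and threshold are not given in the sources used here. On arrays of other clones 60 detection p cells held dates, of which 34 were converted back and 26 took the value of the probe nearest in signal.

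R 4.3.3 and limma 3.58.1 were used. The deposited intensities were normalized with neqc (offset 16, quantiles over 30 arrays, log2). The filter kept probes detected (p under 0.05) on 3 or more arrays. One fit of 10 condition means (20 residual and 3.38 prior degrees of freedom) gave the change in each clone and the differences from Ctrl_R. P-values were adjusted by Benjamini-Hochberg over all tested probes. The brightest probe over all arrays stands for a gene in lists. Array symbols were matched to RefSeq (GRCm38.p6): 14094 by symbol, 3047 by synonym, 120 by gene ID and 836 not.

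The genes, lists and comparisons were chosen with earlier results of these data known. Named are the targeted genes, pluripotency and streak markers, the 15 genes that rose and 15 that fell most among called probes with non-overlapping arrays, the called genes of each list (at most 8, otherwise the 2 largest), the 10 largest of the probes called in all clones, and the 5 in each direction that differ most from the mean of the other clones. Some genes under this rule are not reported here. Other genes are named after their values were seen: further list members, the interferon genes and probes that disagree. The pattern for cytosolic ribosome genes was corrected after names were seen. Replicate numbers did not pair the arrays (correlation of deviations between same-numbered arrays −0.01, −0.07 and −0.03). The scripts were tested on simulated data. Alternatives are given in the closing section.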

Additional observations from a re-analysis of the deposited data

Results flagged for a closer look

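The change on Dox withdrawal differed between Ctrl_R and the other clones by a test of the difference itself. It differed for 780 probes from Bub1b_R, 1362 from the arrays labelled Chek1_R, 799 from Ppm1g_R, 497 from Ppp2r1b_R and 599 from the mean of the 4 clones. Of the probes changed in Ctrl_R, the log2 change lay furthest above that mean for Lypd2 (1.27), LOC639910 (1.20), LOC625360 (1.01), Gm428 (0.97) and Trim37 (0.93). Lypd2 had log2 changes of 0.70 in Ctrl_R and −0.97 to −0.27 elsewhere, and its call in Ctrl_R was lost without −Dox replicate 3 (0.61). It lay furthest below the mean for T (−1.68), Hmox1 (−1.28), LOC100044289 (−1.27), the glycosyltransferase gene Alg8 (−1.07) and LOC381801 (−1.06). Alg8 was at −0.66 in Ctrl_R and at 1.18 in Ppm1g_R, its other tested probes in Ctrl_R lay between −0.74 and −0.09, and its call was lost without 5 of the 6 Ctrl_R arrays in turn. LOC625360 and LOC100044289 were not detected with Dox in Ctrl_R, so their differences are fitted values that set no order. Without the arrays labelled Chek1_R in the mean, LOC100044289 differed by −0.33 (limma, adjusted p = 0.0514), which did not pass, and T by −1.01. The cause of these differences was not tested.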

How the results depend on the processing

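The counts of changed probes depended on the normalization offset, the fold limit and the test. In the order Ctrl_R, then the difference of Ctrl_R from Bub1b_R, the arrays labelled Chek1_R, Ppm1g_R, Ppp2r1b_R and the mean of the 4 clones, the counts were 167, 780, 1362, 799, 497 and 599. They were 45, 434, 860, 439, 274 and 272 at an offset of 50, and 15, 119, 308, 121, 52 and 76 at an offset of 200. With a 2-fold limit they were 10, 132, 341, 122, 75 and 86, and without a fold limit 1144, 1847, 2766, 1821, 1254 and 2369. Median scaling gave 288 for the difference from Ppp2r1b_R. The methods' t-test, after Benjamini-Hochberg adjustment, called 15 probes in Ctrl_R, and at an unadjusted p under 0.05 it called 166 of at least 1.5-fold.

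Probes that changed the same way in Ctrl_R and another clone were counted in the same order (Bub1b_R, Chek1_R by label, Ppm1g_R, Ppp2r1b_R, then all 4) and numbered 47, 49, 19, 51 and 13. At an offset of 50 these were 20, 24, 11, 18 and 8, at an offset of 200 they were 6, 9, 4, 9 and 4, with a 2-fold limit 2, 2, 2, 2 and 2, and without a fold limit 476, 487, 376, 515 and 188. Without background correction, 29 were shared with Ppm1g_R. Of the lists, the 2-cell-like count fell from 6 to 2 at an offset of 200 and the ATF4 count from 9 to 4 under median scaling.

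With the replicate number as a block, 167 probes were changed in Ctrl_R and 591 differed from the mean of the 4 clones, and the block changed no call of a named gene. Leaving out each Ctrl_R array in turn gave 162 to 189 changed probes, 5 to 7 changed 2-cell-like genes, 8 to 11 cholesterol genes and 6 to 9 ATF4 genes past the adjusted p. Alternatives chosen after seeing the data were the mean without the arrays labelled Chek1_R (473 probes differed, and 15 were shared with all 3 clones) and the brightest probe of each gene (128 changed). A fit of only the Ctrl_R arrays called 120 probes. The 97 named probes include many that were not called in the main fit, such as those of Bub1b, Nanog and Klf4. The number of calls that could be lost was therefore smaller than 97. Of the called ones, 25 lost their call at an offset of 50 and 46 at an offset of 200. The call was lost for 45 under the methods' t-test and for 8 in the fit of only the Ctrl_R arrays. Under the t-test these 45 included both Tfrc probes (adjusted p = 0.0527 and 0.0629), AF067061 (0.0611), Gm428 (0.0524) and Tcstv3 (0.0629). They also included LOC639910 (0.0706), Atf5 (0.0834), Gbx2 (0.0989), Egr1 (0.102) and Ahnak (0.0527). Of the 97, 94 kept their direction in every alternative run. The exceptions were not called in any setting: Mixl1 (−0.02), at 0.0026 without background correction, Klf4 (−0.03), at 0.0077 with median scaling, and Fgf5. Without single arrays Mixl1 ranged from −0.1173 to 0.0518, Klf4 from −0.1096 to 0.0184 and Fgf5 (−0.06) from −0.1595 to 0.0429. The cause of these movements was not tested, and low signal limits the dim probes most.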
